A study of Mus musculus with 4 samples.

Results

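The immunoglobulin variable (V) segments were taken as the genes whose symbol starts with Ighv, Igkv or Iglv and whose annotated type is IG_V_gene. The rule found 216 of 55536 mouse genes, of which 113 were heavy chain segments (Ighv), 100 kappa light chain segments (Igkv) and 3 lambda light chain segments (Iglv). It uses names only and no measured value of a member, but was chosen with earlier results of these data known. A further 2 genes of the same type, Gm42543 and Gm43218, carry other names and had 0 counts.

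The RNA came from T cells of the spleen of male B6CASTF1/J mice, 66 days old, bred from a C57BL/6 female and a CAST/EiJ male. The labels name CD3, a part of the T cell receptor complex, as the mark of these primary cells, and give no treatment. The 4 biological replicates form 1 group and are called libraries 1 to 4, and each was made from 300 ng of total RNA with synthetic spike-in RNAs. The labels number them as separate biological samples but give 1 donor identifier for all, so SDs and p-values measure the spread between these samples, which may be technical.

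An antibody chain is encoded by a V segment joined to a J segment, and for the heavy chain also a D segment, by the RAG recombinase. Each B cell joins its own V segment, and the joined gene is transcribed and spliced to a constant (C) region, Ighm or Ighd in a naive B cell and Igkc or an Iglc gene for the light chain. T cells recombine the related Trav and Trbv segments of the T cell receptor instead, so in splenic T cells immunoglobulin V segments are known mainly as markers of B cells.

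In the mm10 assembly the Ighv members lie on chr12:113578504-116000461, all on the minus strand. The Igkv members lie on chr6:67555497-70704177, 62 on the minus and 38 on the plus strand. The Iglv members lie on chr16:19085017-19260859, on the minus strand. The 3' ends of the coding parts of 6 members are shown, because these members are among those with the highest levels of their locus. This end also meets the next segment of the join, J in the light chains and D in the heavy chain. Capitals mark the letters TANTNNTG, which hold the codons of the conserved tyrosine and cysteine at the end of the last framework region before the join.
Igkv15-103: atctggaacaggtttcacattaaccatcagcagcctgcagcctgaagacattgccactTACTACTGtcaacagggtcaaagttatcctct
Igkv1-110: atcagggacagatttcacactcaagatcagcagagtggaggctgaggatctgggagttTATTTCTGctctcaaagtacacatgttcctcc
Igkv10-96: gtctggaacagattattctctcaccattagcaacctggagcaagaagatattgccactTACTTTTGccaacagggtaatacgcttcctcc
Ighv6-6: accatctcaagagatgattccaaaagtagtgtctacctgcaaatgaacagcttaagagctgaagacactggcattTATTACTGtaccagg
Ighv7-1: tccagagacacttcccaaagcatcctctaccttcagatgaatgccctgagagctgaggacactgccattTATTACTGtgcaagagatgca
Iglv2: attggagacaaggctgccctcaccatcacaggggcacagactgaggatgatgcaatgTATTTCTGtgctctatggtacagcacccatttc
This pattern, searched on the coding strand only and in any frame, was in the last 60 coding bases of 207 of 216 members (95.8%). It was in the last 60 bases of 134 of 175 Trav and Trbv transcripts (76.6%), 86 of 158 transcripts of immunoglobulin V pseudogenes (54.4%) and 3952 of 58781 protein-coding transcripts (6.72%). Among the members without it was Iglv3. A match describes the letters of the reference and is no measurement of these libraries.

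V segment RNA was scarce in 3 libraries and more abundant in library 4. The 216 members together had 42, 76, 34 and 397.25 expected counts in libraries 1 to 4, out of 15765009, 17280908, 16382457 and 14540725 counts of mouse genes. This was 2.66 CPM, counts scaled to library size (exact Poisson 95% interval 1.92 to 3.60), 4.40 CPM (3.47 to 5.50), 2.08 CPM (1.44 to 2.90) and 27.3 CPM (24.7 to 30.1). Library 4 stood 6.21 times above the highest of the others, although it had the fewest counts in all. The intervals cover counting error only, because PCR copies of a molecule cannot be recognised here.

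Each locus was highest in library 4. Heavy chain segments had 0.825, 1.79, 1.10 and 9.78 CPM in libraries 1 to 4, from 13, 31, 18 and 142.25 counts. The mean was 3.38 ± 4.29 CPM (SD, n = 4), and library 4 stood 5.45 times above library 2, the next highest. Kappa segments had 1.71, 2.20, 0.916 and 16.4 CPM, from 27, 38, 15 and 239 counts, with a mean of 5.32 ± 7.43 CPM (SD, n = 4) and a ratio of 7.47 of library 4 to library 2. Lambda segments had 0.127, 0.405, 0.0610 and 1.10 CPM, from 2, 7, 1 and 16 counts, with a ratio of 2.72. For the heavy and kappa loci the interval of library 4 lay above those of the other libraries, whereas for lambda the interval of library 4 overlapped that of library 2. The SDs exceed the means because 72.5%, 77.3% and 65.0% of the summed CPM of the 3 loci lay in library 4. In bulk RNA, fewer cells of a type and less RNA per cell cannot be told apart.

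**Figure D1:**
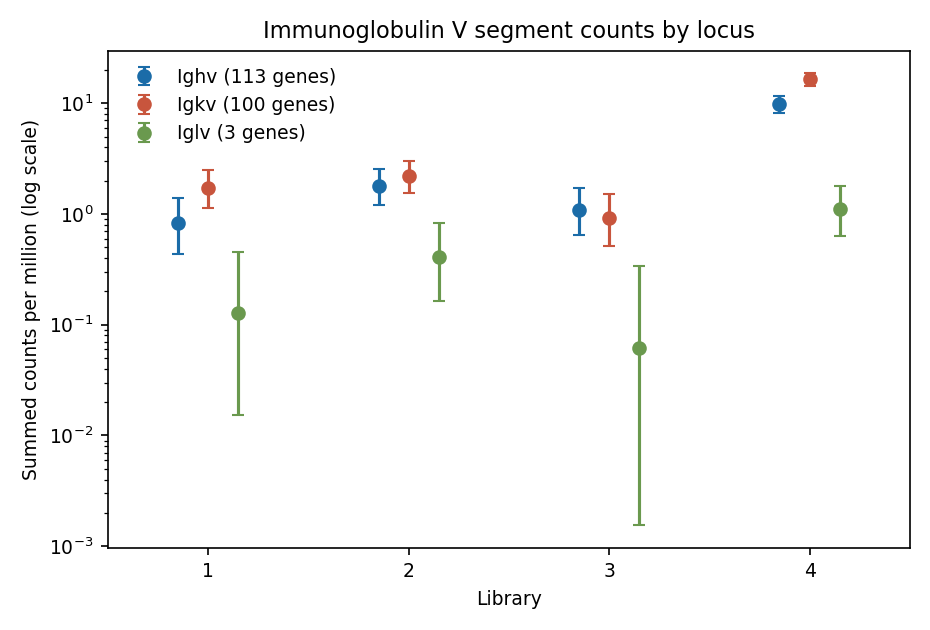
Summed CPM (log scale) of the 113 Ighv, 100 Igkv and 3 Iglv segments in each library, with exact Poisson 95% intervals as bars. Library 4 has 9.78, 16.4 and 1.10 CPM at the 3 loci, and the other libraries lie at or below 2.20 CPM.

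The higher sum of library 4 was spread over many segments. At least 1 expected count was found for 28, 37, 20 and 121 members in libraries 1 to 4, and for 130 of 216 in any library. Of these 130, 66 had counts in library 4 alone and 9 had none there. At 3 or more counts, the floor used here, which is 0.190, 0.174, 0.183 and 0.206 CPM in libraries 1 to 4, there were 4, 8, 2 and 54 members. A further 86 members had under 1 count in every library, which at this depth does not show that they are absent. The highest single member took 4.78% of all V counts in library 4 and the 10 highest took 27.0%, against 57.1%, 57.9% and 70.6% for the 10 highest in libraries 1 to 3. Those larger shares rest on at most 76 counts per library. Of the 40 members with at least 5 counts in all, 36 had their highest CPM in library 4, 3 in library 2 and 1 in library 3.

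By family, the first deposited quantification had 10 of 11 heavy chain and 16 of 16 kappa families with counts highest in library 4. Ighv1, the largest family with 53 members, had 64.0 counts there, or 45.0% of the heavy chain V counts. Ighv14, with 4 members, had 18 counts, and Ighv9, also with 4 members, had 10. Ighv7 was the exception, at 0.427 CPM in library 3 and 0.138 CPM in library 4, from 7 and 2 counts. The Poisson intervals of these values overlapped (0.172 to 0.880 and 0.0167 to 0.497 CPM). On the kappa side Igkv4, with 26 members, had 56 counts in library 4 (23.4% of kappa V counts), and Igkv1 and Igkv6 had 27 each. Igkv15, a family of 1 member, had 19. In the first deposited quantification no count was assigned in any library to the families Ighv11, Ighv12, Ighv13, Ighv15 and Ighv16. The same held for Igkv7, Igkv13, Igkv18 and Igkv20, and all of these families hold 1 or 2 members each. The second deposited quantification had 1 count for Ighv11, in library 4. In it Ighv3, with 1 count, Ighv6 and Ighv7 were highest in library 2. Ighv7 had 0.215 CPM there, against 0.112 in library 3 and 0.127 in library 4. Ighv8 and Igkv2 had 0 counts in the second quantification. The other families with counts in the first were highest in library 4 in the second as well.

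Among kappa segments Igkv15-103 (chr6:68437440-68437925, plus strand) had the highest mean. It had 1, 9, 6 and 19 counts in libraries 1 to 4, or 0.22, 1.85, 1.31 and 4.72 TPM, a level per length scaled to a fixed total, with a mean of 2.02 ± 1.92 TPM (SD, n = 4). It was the highest kappa member in libraries 2, 3 and 4, but had 1 count in library 1. Igkv1-110 (chr6:68270485-68271267, plus strand) had 0.40, 0.94, 0.00 and 2.84 TPM. Igkv4-59 (chr6:69438218-69438757, minus strand) had 0.91, 0.21, 0.00 and 2.62 TPM. Both were highest in library 4 and had 0 counts in library 3. Igkv10-96 (chr6:68631963-68632442, minus strand) had 0, 1, 0 and 12.54 counts, and Igkv4-55 (chr6:69607275-69607828, minus strand) 0, 0.5, 0 and 13 counts. These members were thus almost confined to library 4. Of the other members among the 10 highest kappa means, Igkv4-53 had 0.95, 0, 0 and 2.05 TPM and led the kappa locus in library 1 by TPM, though Igkv4-59 had more counts there (4 against 3). Igkv6-32, Igkv6-23, Igkv4-86 and Igkv19-93 had 1.82 to 2.06 TPM in library 4 and at most 0.45 in the others, and Igkv19-93 had counts in library 4 alone. Igkv1-117, lower than these at 0.20, 0, 0 and 1.01 TPM, is named for its difference between quantifications.

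In the first deposited quantification heavy chain segments were lower singly. Ighv6-6 (chr12:114434788-114435244) had 3, 3, 0 and 5 counts, or 0.71, 0.66, 0.00 and 1.33 TPM, and led the heavy chain means at 0.675 ± 0.543 TPM (SD, n = 4). Ighv7-1 (chr12:113896408-113896946) had 0, 4, 5 and 2 counts, or 0.00, 0.86, 1.14 and 0.52 TPM. Its highest value was in library 3, unlike that of most members. Ighv2-9 had 0, 5, 0 and 1 counts and was the highest heavy chain member in library 2, but the second quantification had 0 counts for it there. Ighv1-26, Ighv14-2 and Ighv14-1 each had 7 counts and 1.91 TPM in library 4, and 2, 1 and 0 counts in library 3, with 0 in libraries 1 and 2. Ighv10-1 and Ighv1-22 had 6 and 5.06 counts in library 4 and 0 elsewhere, and Ighv1-58 had 5 counts there and 1 in library 2. Ighv4-1 was the only heavy chain member with at least 1 count in all 4 libraries, at 0.19, 0.18, 0.38 and 1.14 TPM. This holds for the first quantification, as the second had 0 counts for it in libraries 1 and 2. Ighv1-15 had 0.24, 0.45, 0.00 and 0.82 TPM. Counts of this size cannot order these members within library 4.

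The 3 lambda segments had few counts each. Iglv2 had 2, 7, 1 and 3 counts, or 0.49, 1.60, 0.24 and 0.83 TPM, and held every lambda V count of libraries 1 to 3. Iglv3 had 8 counts and Iglv1 had 5 counts in library 4, and both had 0 in libraries 1 to 3. In TPM, library 4 thus had 1.95 of Iglv3, 1.17 of Iglv1 and 0.83 of Iglv2, while libraries 1 to 3 had Iglv2 alone. In the second deposited quantification Iglv3 also had 1 and 2 counts in libraries 1 and 2, beside 2 and 3 of Iglv2, so the absence of Iglv3 there holds for the first table only. Iglv1 overlaps 2010309G21Rik, an antisense gene on the opposite strand. In the first quantification the members with at least 1 count in all 4 libraries were Igkv15-103, Igkv6-32, Ighv4-1 and Iglv2. The second quantification had 0 such members.

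**Figure D2:**
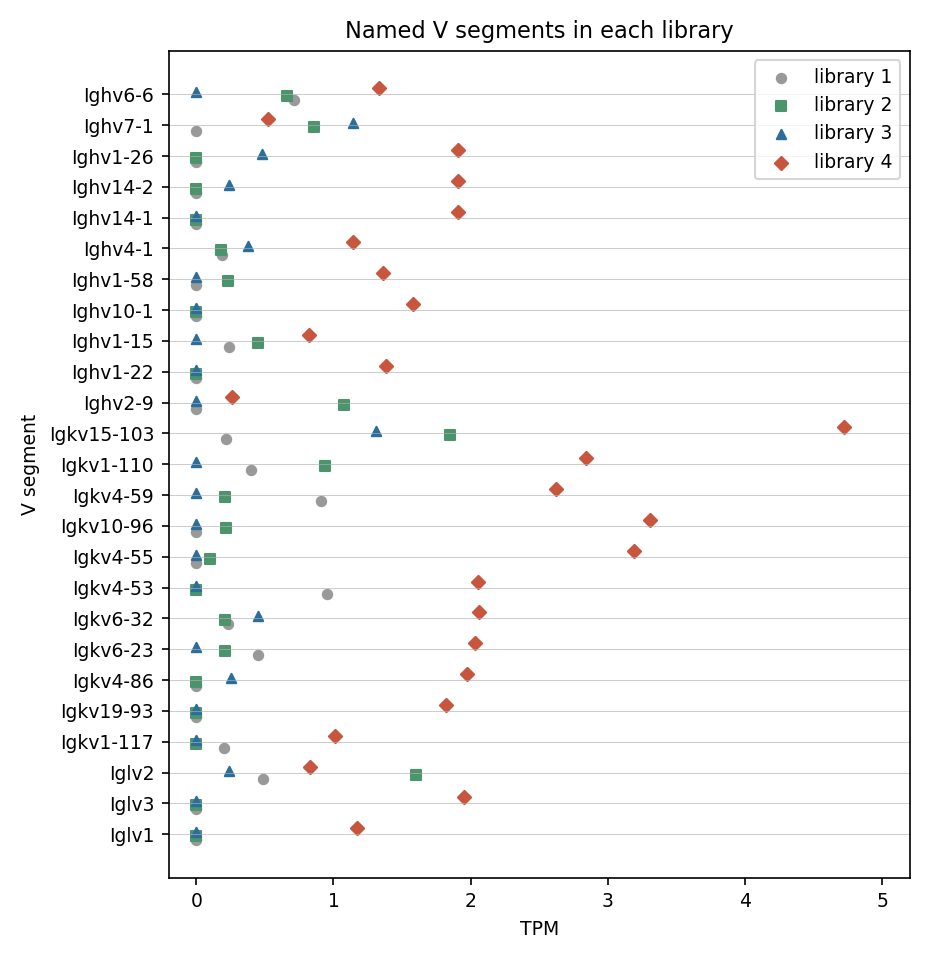
TPM of the 25 named V segments, 11 Ighv, 11 Igkv and 3 Iglv, with 1 point per library. Igkv15-103 reaches 4.72 TPM in library 4, and Ighv7-1, Ighv2-9 and Iglv2 are highest in another library.

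Whether single genes varied between the 4 libraries beyond the fitted dispersion was tested across the whole gene table with edgeR's goodness-of-fit test and Benjamini-Hochberg adjustment at 0.05. Of 13118 genes that passed the filter on low counts, 183 varied (1.4%), and 603 had an unadjusted p under 0.05. No member passed that filter, which asks for 0.622 CPM in 4 libraries, so none was tested. Without the filter, 279 of 23727 genes varied (1.18%), and 130 members were tested, of which 2 were called and 34 had an unadjusted p under 0.05. The 2 calls of 130 are a share near that of all genes and are not read as a result about the members. At an unadjusted p under 0.05 the share was 26.2% of members against 5.41% of all genes (1284 of 23727). The members tested are those with a count, most of which were highest in library 4, so this share is a description. They were Igkv4-55 (adjusted p = 0.0138, edgeR) and Igkv10-96 (adjusted p = 0.0464, edgeR), both highest in library 4. The call of Igkv10-96 was lost without library 1 (adjusted p = 0.120), library 3 (0.127) or library 4 (0.887). With Igkv4-55 the second deposited quantification had 1 count in place of 13.5 over the 4 libraries.

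The share of each locus in the V counts was compared within each library. Kappa segments held 64.3% of V counts in library 1 (Wilson 95% interval 49.2 to 77.0%), 50.0% in library 2 (39.0 to 61.0%), 44.1% in library 3 (28.9 to 60.5%) and 60.2% in library 4 (55.3 to 64.9%), with a mean of 54.6% ± 9.23 (SD, n = 4). Heavy chain segments held 31.0%, 40.8%, 52.9% and 35.8%. Lambda segments held 4.76%, 9.21%, 2.94% and 4.03%. The intervals of the kappa share in libraries 1 to 4 overlap one another, so a difference between them was not detectable at this depth. In the second deposited quantification the kappa share was 47.8%, 46.8%, 43.75% and 48.3%. That of library 4 lay below the interval of the first, beside 45.0% for heavy chain segments. The intervals thus do not cover the choice of quantification.

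Set beside their constant regions, the 3 chains differed. Igkc, the kappa constant region, had 43, 55, 39 and 429 counts, which is 62.8, 69.1, 38.5 and 55.7 kappa V counts per 100 Igkc counts, and library 4 was within the range of the others. Ighm, the constant region of IgM, had 3288, 3717, 3499 and 4169 counts, so it was high in every library, while Ighd, that of IgD, had 50, 95, 68 and 374. Heavy chain V counts per 100 counts of Ighm and Ighd were therefore 0.389, 0.813, 0.505 and 3.13, and library 4 was 3.13 (interval 2.65 to 3.69) against at most 0.813 (0.572 to 1.16). Against Ighd alone they were 26.0, 32.6, 26.5 and 38.0 per 100. The lambda ratio to Iglc1, Iglc2 and Iglc3 was 8.0, 23.3, 4.55 and 7.05 per 100. On the TPM scale, which allows for length, summed V over summed C levels were 0.0216, 0.0467, 0.0281 and 0.184 for the heavy chain and 1.06, 1.11, 0.618 and 0.908 for kappa. For lambda they were 0.119, 0.335, 0.0690 and 0.0945. The T cell receptor gave 0.490 to 0.510 for Trbv over Trbc1 and Trbc2 and 0.936 to 0.962 for Trav over Trac in the 4 libraries. The range of the kappa ratio holds that of the alpha chain, and the heavy and lambda ratios lay below both receptor ratios in each library.

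**Figure D3:**
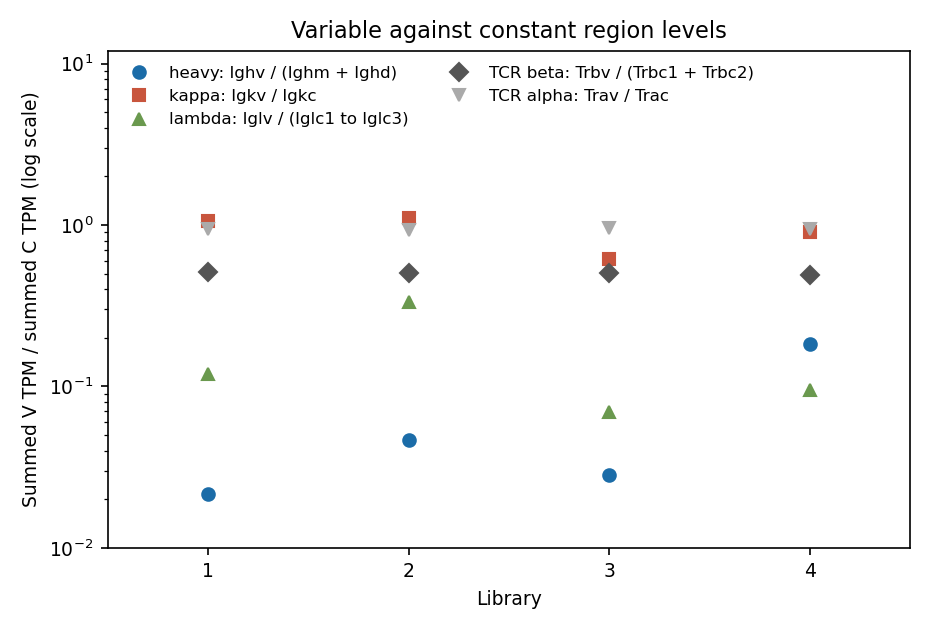
Summed TPM of V segments divided by summed TPM of constant regions (log scale), for 3 immunoglobulin and 2 T cell receptor (TCR) chains in each library. The heavy chain ratio is 0.184 in library 4 and at most 0.0467 in the others, while the T cell receptor ratios stay within 0.490 to 0.510 and 0.936 to 0.962.

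V segments of the T cell receptor did not follow that pattern. Trav segments had 136.7 ± 5.38 CPM and Trbv segments 160.5 ± 6.85 CPM (SD, n = 4). For every 100 counts of these, the libraries had 0.888, 1.43, 0.696 and 9.63 counts of immunoglobulin V segments. Class-switched heavy chain constant regions were low. Ighg3 had 1, 9, 1 and 34 counts, Ighg2c 2, 5, 0 and 19, Ighg2b 1, 3, 0 and 9 and Igha 1, 1, 0 and 5, with the highest value in library 4. Ighg1 had 7, 0, 0 and 3, highest in library 1, and Ighe had 0 in each. The 32 immunoglobulin D and J segments, 10 to 54 bases long, were listed at 0 in every library.

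Marker lists of B cells and erythroid cells moved with the immunoglobulin V segments, whereas those of plasma cells and T cells changed little in sum. The B cell list, with Ms4a1, Cd79a and Pax5 among its 10 genes, had a summed level of 8.38, 10.4, 6.6 and 86.3 TPM, and 10 of 10 genes were highest in library 4. Of its 7 genes tested after filtering, 7 varied. Library 4 was thus 8.33 times the highest of the others for this list. The erythroid list, 4 globins and Alas2, had 35.1, 62.3, 15.2 and 633.3 TPM, with 5 of 5 highest in library 4 and 3 of 3 tested called. The plasma cell list had 39.7, 44.2, 43.8 and 45.8 TPM, most of it Xbp1, which other cells also express. By CPM 4 of its 8 genes were highest in library 4, and Prdm1, highest there by TPM, was not among them. Of the 3 tested after filtering, which include Xbp1 and Prdm1, 0 were called. Jchain and Sdc1 did not pass the filter, so this result does not bear on them. Without the filter 0 of the list were called, and Jchain had an adjusted p of 0.0709 (edgeR). Jchain had 0.19, 0.26, 0.37 and 1.85 TPM and Sdc1 0.14, 0.08, 0.25 and 0.83. Derl3 had 0.33, 0.50, 0.66 and 0.50 TPM and Prdm1 1.47, 2.15, 2.28 and 2.34, Xbp1 was lowest in library 4 at 29.3 TPM, and Tnfrsf17 was at 0. The T cell list had 2751 to 2867 TPM, with Cd3e at 297.9 to 305.5 TPM and 0 of 10 called. Of the 7 genes listed under V(D)J recombination, not all of which act in it, Rag1, Rag2 and Igll1 were at 0 throughout. The list summed to 1.60, 0.660, 1.74 and 3.01 TPM. Dntt had 0.96, 0.49, 1.17 and 1.0 TPM, so the higher sum of library 4 came from other genes of the list. The part of these cell types in the V segment counts was not tested.

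Position along the locus was taken as the distance from Ighm or Igkc. Members were split by rank into a nearest, a middle and a farthest set of about equal number. In library 4 the farthest kappa set held 43.9% of kappa V counts and 24 of its 33 members had a count. The middle and nearest sets held 29.3% and 26.8%, and 17 of 33 and 17 of 34 members had a count. Igkv15-103, Igkv1-110 and Igkv10-96 lie in the farthest set, 2289, 2456 and 2094 kb from Igkc. Libraries 1 to 3 had 40.7%, 63.2% and 53.3% of kappa V counts in that set, from 11, 24 and 8 counts. For the heavy chain the nearest, middle and farthest sets held 37.4%, 35.1% and 27.4% in library 4, with 20 members with counts in each. These shares are descriptions, since members that share sequence are not independent.

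**Figure D4:**
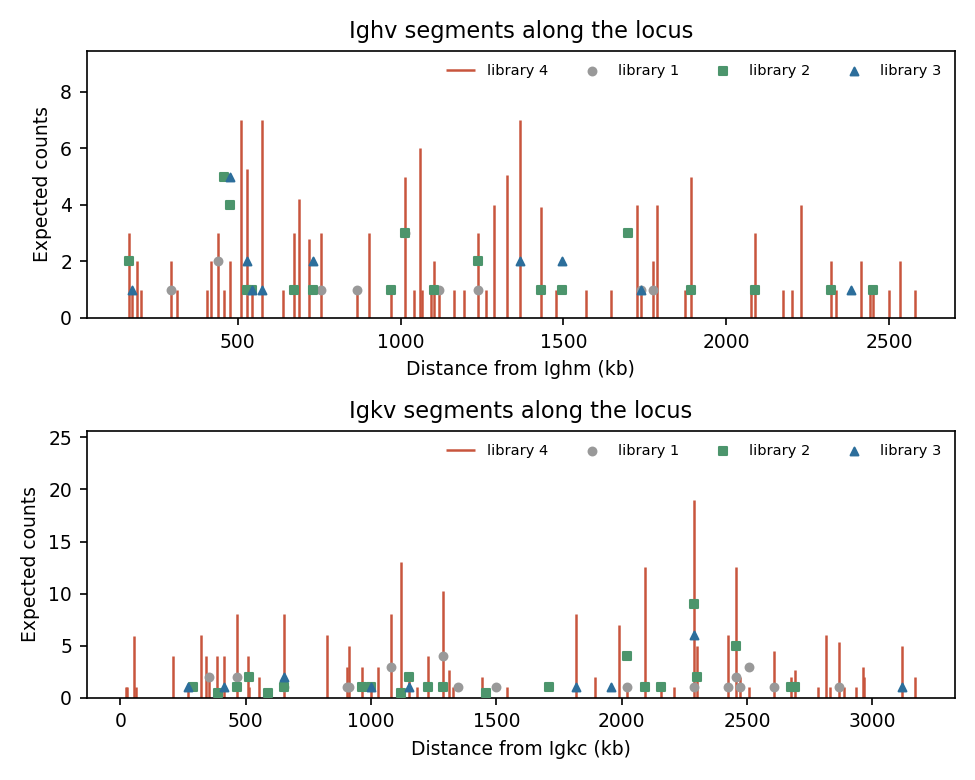
Expected counts of each Ighv (upper) and Igkv (lower) segment by distance in kb from Ighm or Igkc, with lines for library 4 and symbols for libraries 1 to 3. Counts of library 4 spread over the length of both loci, and the highest line is Igkv15-103 with 19 counts at 2289 kb.

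V segments of 1 family can be nearly identical, which bears on how reads were divided. The median identity of a member's coding part to its nearest family member was 94.9% for both Ighv and Igkv, and 51 Ighv, 46 Igkv and 2 Iglv members were over 95%. Still, 134 of 216 members shared no window of 101 bases with another annotated gene, and 82 shared some. The following pairs show how few bases tell close members apart, with differing bases in capitals in coding positions 101 to 250. Iglv1 and Iglv2 differed at 11 of 351 coding bases.
Iglv1: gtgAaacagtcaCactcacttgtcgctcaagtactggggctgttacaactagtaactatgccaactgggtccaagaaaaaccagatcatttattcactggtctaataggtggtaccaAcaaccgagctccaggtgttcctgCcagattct
Iglv2: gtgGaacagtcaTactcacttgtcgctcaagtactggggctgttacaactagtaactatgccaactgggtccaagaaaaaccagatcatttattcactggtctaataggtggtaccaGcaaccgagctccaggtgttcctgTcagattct
Igkv1-110 and Igkv1-117 differed at 10 of 359.
Igkv1-110: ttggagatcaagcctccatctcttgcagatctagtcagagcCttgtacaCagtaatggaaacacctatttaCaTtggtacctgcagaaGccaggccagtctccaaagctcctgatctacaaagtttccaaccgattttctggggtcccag
Igkv1-117: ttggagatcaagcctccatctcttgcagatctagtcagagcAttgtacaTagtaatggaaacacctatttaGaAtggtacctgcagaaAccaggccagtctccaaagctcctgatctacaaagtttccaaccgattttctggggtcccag
Ighv14-1 and Ighv14-2 differed at 10 of 351.
Ighv14-1: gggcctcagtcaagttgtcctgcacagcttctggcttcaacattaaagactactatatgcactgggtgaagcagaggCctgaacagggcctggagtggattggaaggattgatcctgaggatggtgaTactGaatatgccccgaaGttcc
Ighv14-2: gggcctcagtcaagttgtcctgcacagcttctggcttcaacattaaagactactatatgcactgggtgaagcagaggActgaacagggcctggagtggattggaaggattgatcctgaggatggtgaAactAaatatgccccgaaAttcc
All of these are C57BL/6 reference sequences read from GENCODE M21 transcripts. The deposited tables hold 1 value per segment and do not separate the CAST/EiJ alleles of these F1 mice, whose part in the counts of single members was not tested.

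The second deposited quantification, of which transcript values were summed per gene, had 23, 47, 16 and 211 V counts in libraries 1 to 4, and again most in library 4. Over all libraries it had 0.541 times the counts of the first, with 0.651 for Ighv, 0.445 for Igkv and 0.846 for Iglv. V segments of the T cell receptor were lower as well, at 0.573 for Trav and 0.754 for Trbv. Among constant regions this ratio was 0.758 for Igkc, 0.940 for Trac and 0.969 for Ighm. The ratio was 0.522 over the 134 members with unique windows and 0.567 over the 82 that shared windows. Summed TPM were close, at 9.69, 18.6, 6.61 and 98.3 against 9.86, 16.4, 7.67 and 103.8 in the first. Single members could differ more. Ighv14-1, Ighv14-2 and Ighv1-22, with 7, 8 and 5.06 counts in the first, had 0 in the second. Igkv1-110 had 19.5 and 4.51 counts, while Igkv1-117, its near copy, had 5.48 and 9.49. Igkv15-103 had 35 and 16 counts and the highest mean TPM of any member in both. Igkv6-23 had 11 counts in both, with a mean of 0.672 and 1.26 TPM. Ighv1-26 had a mean of 0.598 ± 0.904 TPM in the first and 1.47 ± 2.64 TPM in the second (SD, n = 4). Iglv3 had a mean of 0.488 and 1.18 TPM. The levels of members such as Ighv1-26, Iglv3, Igkv6-23, Igkv1-110, Igkv1-117, Igkv4-55, Ighv14-1, Ighv14-2, Ighv1-22 and Ighv2-9 are uncertain for this reason.

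**Figure D5:**
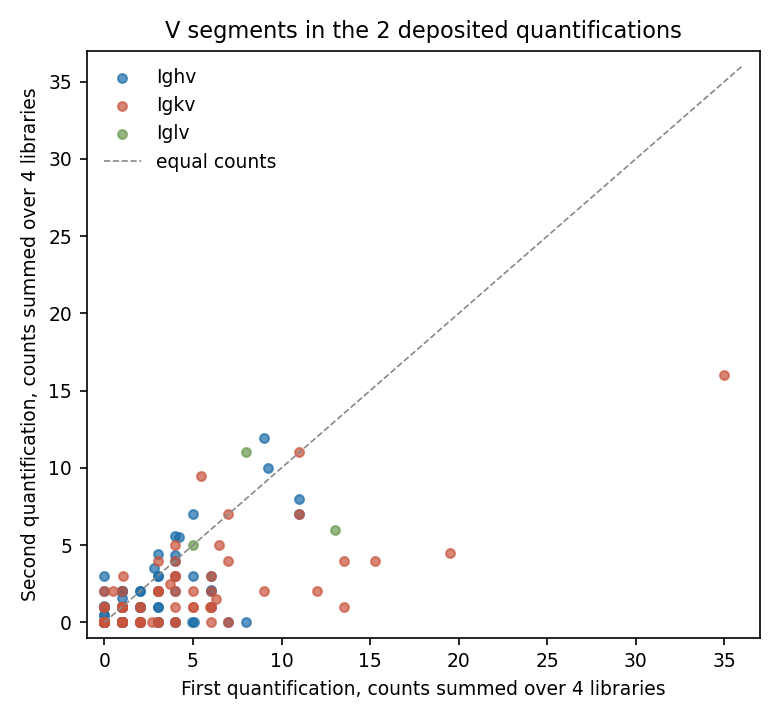
Counts of each V segment summed over 4 libraries in the first (horizontal) and second (vertical) quantification, by locus, with a dashed line of equal counts. Igkv15-103 is farthest right with 35 and 16 counts, and most Igkv points with over 10 counts lie below the line.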

How the data were processed

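Total RNA of 4 libraries of 1 group was analysed. Values refer to mm10 and GENCODE M21 per the submitters' processing notes, and the aligner is not given in the sources used here, nor are the quantifiers' names. The authors deposited, per library, a gene table with expected counts (estimated, not normalized) and TPM (scaled to length and to a fixed total), and a second transcript table whose deposited estimated counts and TPM were summed per gene here. Library sizes left out spike-ins (0.299 to 0.347% of counts) and numeric identifiers that name no gene (at most 8.75e-05%). CPM was computed over 55536 mouse genes. Expected counts were rounded for edgeR 4.0.16 in R 4.3.3 (intercept only, trended dispersion, TMM, filterByExpr, goodness-of-fit test, Benjamini-Hochberg at 0.05). The test was also run on counts simulated at the fitted dispersion that it assumes, so that run is no check of the dispersion. DESeq2 1.42.0 size factors, no filter, TPM, the second table, TMM-scaled totals, a minimum of 3 counts and leaving out each library were alternatives. Sequence windows and letters were read with Python 3.11.15. Sums, shares and ratios carry intervals and no p.

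Named segments were the 10 Ighv, 10 Igkv and all Iglv with the highest mean TPM, the highest of each locus in each library, those called, and the 5 with the largest difference in mean TPM between quantifications. The members and gene lists were chosen with earlier results of these data known. The name and values of 1 list gene are not reported here, though it stays in its list's sums and counts.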

Additional observations from a re-analysis of the deposited data

Results flagged for a closer look

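Of 54 values checked for 1 library lying far from the other 3, 30 did so by Dixon's test at its 95% critical value, and in each of the 30 it was library 4 that was high. Chance alone gives about 1 in 20 for a value chosen without regard to its level. The 25 named segments were chosen by their levels and the 6 families by their counts in library 4, so their 12 and 6 cases follow in part from that choice. Of the other 23 values 12 were in this set, and they share a library, so they are not separate events. Summed V segments stood at 27.3 CPM in that library, with Ighv at 9.78 and Igkv at 16.4. Families at such distance were Ighv1 (4.40 CPM), Ighv14 (1.24), Ighv9 (0.688), Igkv4 (3.85), Igkv1 (1.86) and Igkv6 (1.86). Pseudogenes of the Ighv locus had 0.945 CPM there.

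Constant regions did the same, with Ighm at 286.7 CPM, Ighd at 25.7, Igkc at 29.5 and Iglc1 to Iglc3 at 15.6. So did the heavy chain ratio of 3.13 V counts per 100 counts of Ighm and Ighd. Dixon's test does not weigh the size of a rise. Library 4 was 1.33 times the highest other library for Ighm, 4.68 for Ighd, 9.27 for Igkc and 8.99 for Iglc1 to Iglc3. The goodness-of-fit test did not call Ighm (adjusted p = 0.147, edgeR). Of the 25 named segments 6 had 0 in libraries 1 to 3 and had to be in this set. The levels of the 12 in library 4 were 3.31 TPM for Igkv10-96, 3.19 for Igkv4-55, 2.06 for Igkv6-32, 1.97 for Igkv4-86, 1.82 for Igkv19-93, 1.91 for both Ighv14-1 and Ighv14-2, 1.58 for Ighv10-1, 1.38 for Ighv1-22, 1.36 for Ighv1-58, 1.95 for Iglv3 and 1.17 for Iglv1. Summed marker lists were 86.3 TPM for B cells, 633.3 for erythroid cells and 321.5 for immunoglobulin constant regions.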

How the results depend on the processing

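The main count of genes varying between libraries was 183, and of members 0 because none passed the filter. It was 279 without the filter, where 2 members were called with either TMM or DESeq2 size factors, and 116 to 146 when 1 library was left out. Without the filter and without 1 library, 0 to 2 members were called, and 0 without library 4. The number of members with a count was 130, 59 at 3 or more counts, and 64 to 128 when 1 library was left out, the lowest being without library 4. Kappa V counts per 100 Igkc counts averaged 56.5, and 35.8 in the second quantification. Of 25 named segments, Ighv4-1 (0.974 TPM) and Igkv1-117 (0.893 TPM) moved by over 1 SD in the second quantification, but the SD exceeds the mean of most, so the 3 that went to 0 there (Ighv14-1, Ighv14-2 and Ighv1-22) stayed within it. The cause was not tested. Leaving out a library without the filter, for members with counts and for the V to C ratios, and DESeq2 size factors without the filter, were chosen after seeing the data. No paired analysis was possible because there is 1 group. Counts per member were at most 19 in a library, and many lay under the floor of 3, so the order of single members is not resolved. Labels do not say whether the replicates are separate animals.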
